A study of Mus musculus with 28 samples.

Results

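The response to human APOBEC3B (A3B) was compared between liver and lung of A3B-overexpressing mice, gene by gene. The comparison used 12 of the 28 samples of the series, 3 in each of 4 groups (A3B liver, control liver, A3B lung and control lung). Genes entered when their mean was at least 1 TPM over the 6 livers and at least 1 TPM over the 6 lungs, which left 10967 of 24849 rows of the table. TPM, the transcript abundance unit, divides reads by gene length and scales each sample to the same total. Changes are A3B minus control on the log2(TPM + 1) scale, so those of low genes are understated, and the interaction is the liver change minus the lung change. A gene was called when its adjusted p was under 0.05.

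The A3B mice were labelled A3B + CAGS-rtTA: they carried an inducible human A3B-tGFP transgene at the ColA1 locus together with a reverse tetracycline transactivator under the broadly active CAGs promoter, and ate doxycycline in their food. Treatment lasted 14 days for A3B livers 23 and 28 and 10 days for A3B liver 70 and for A3B lungs 69, 70 and 74. The study's mouse list enters these A3B mice as collected at a humane end point, so A3B expression and the state of a sick animal cannot be told apart. The labels give 15 days for each control, while the mouse list of the study enters most of the controls as not on doxycycline. Against controls without doxycycline, A3B expression and doxycycline itself cannot be told apart. Control liver 11 carried both transgenes, control lung 87 the CAGs driver alone, and control livers 91 and 92 and control lungs 88 and 91 the A3B transgene alone. Although it carried both, control liver 11 held 0.1445 TPM of the A3B transgene, against at least 705 TPM in A3B livers, so its label of 15 days is doubtful. Doxycycline began in adult animals of 4 weeks. Each sample was 1 animal, numbered here as in the labels. Mouse 70 gave an A3B liver and an A3B lung, and mouse 91 a control liver and a control lung.

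A3B is a cytidine deaminase that turns cytosine into uracil in single-stranded DNA and can also edit RNA. Uracil in DNA is removed by the glycosylase UNG and mended by base excision repair. The liver makes much of the body's cholesterol and fatty acid under the SREBP transcription factors, which are held down when sterols are plentiful or food is short. The lung also makes lipid, in alveolar type II cells that secrete surfactant. Glucocorticoids, released in illness and fasting, act on both organs through a shared set of target genes, among them Fkbp5, Per1 and Ddit4.

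The transgene was read first, as a check of the labels. A3B liver 23 held 1705 TPM of the A3B transgene, A3B liver 28 held 705 and A3B liver 70 held 1585, against 0.144, 0.143 and 0.0929 TPM in the control livers. A3B lungs 69, 70 and 74 held 90.6, 281 and 115 TPM, against 0.472, 0.435 and 0.526 TPM in the control lungs. All A3B samples stood far above all controls, and every A3B liver stood above every A3B lung. The change was 10.10 on the log2 scale in liver and 6.61 in lung, an interaction of 3.5 ± 0.58 (SE; limma adjusted p = 0.00815, and 0.0543 with a spread of its own for each tissue). An exact two-sided permutation of the group labels within each tissue gave p = 0.57 for this interaction over 400 regroupings, where 0.005 was the smallest p possible. That test includes regroupings that exchange A3B and control in 1 tissue only, which give larger interactions. Transgene level and tissue went together, so a response that differs by tissue cannot be told apart from one that differs by transgene level.

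**Figure D1:**
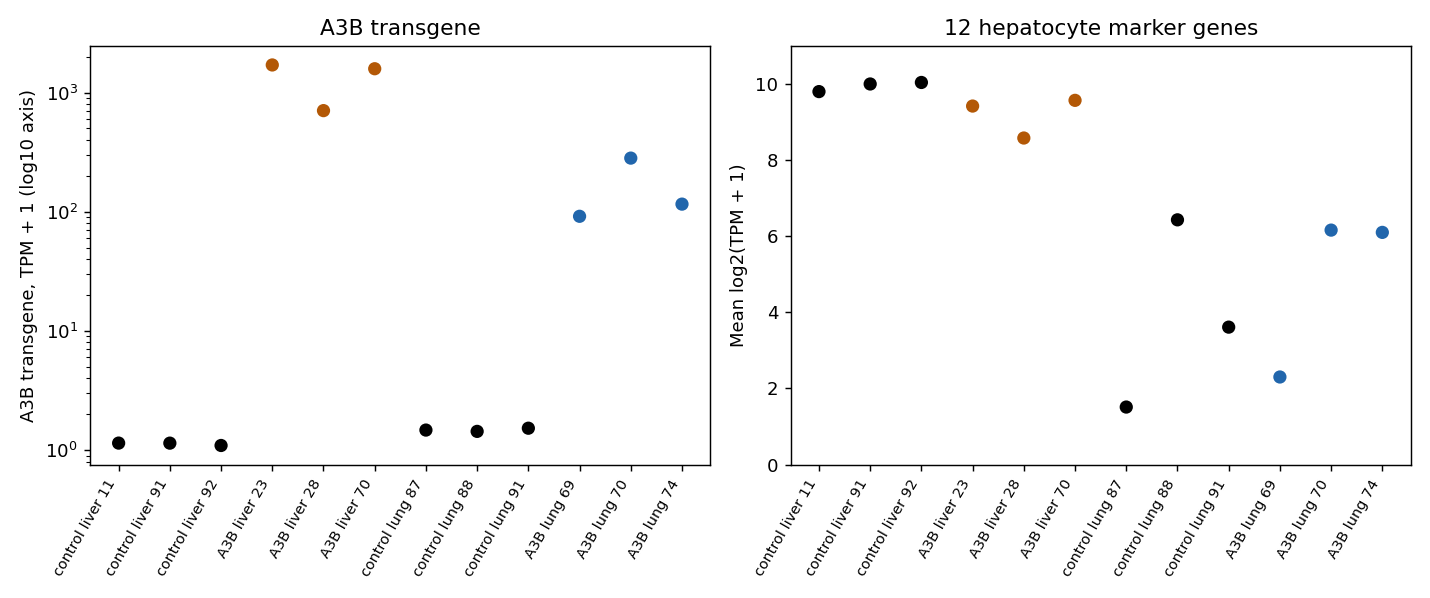
A3B transgene level on a log10 axis in TPM (left) and mean log2(TPM + 1) of 12 hepatocyte marker genes (right) in each of the 12 samples, by group. Every A3B liver lies above every A3B lung for the transgene, and control lung 88 and A3B lungs 70 and 74 lie above the other lungs for hepatocyte markers.

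Several features of the samples bear on the comparison. The livers varied more than the lungs: the median standard deviation within groups was 0.461 on the log2 scale in liver and 0.149 in lung. Hepatocyte transcripts were found in lungs: Alb (albumin) stood at 0.331, 245 and 23.6 TPM in control lungs 87, 88 and 91 and at 3.83, 190 and 216 TPM in A3B lungs 69, 70 and 74. The mean log2 level of the hepatocyte markers was 6.43, 6.16 and 6.1 in control lung 88 and A3B lungs 70 and 74, against 1.51 to 3.61 in the other lungs, so this signal fell in both lung groups. A3B liver 28 was low in some hepatocyte genes, with Cps1 at 24.7 TPM and Cyp2e1 at 99.9 TPM. Control liver 11 was the only sample with Y-linked transcripts at 1 TPM or more (Ddx3y at 9.09 TPM), so the control livers differ among themselves in this sex marker. Of the lung markers, Sftpc was at most 0.664 TPM in livers and between 1420 and 1870 TPM in lungs, Scgb1a1 reached 10.8 TPM in control liver 92, and Sftpa1 stood at 18.2, 3.17 and 43.9 TPM in A3B livers 23, 28 and 70. No library sizes are given with the TPM values, so depth is unknown and no counting error can be stated. In bulk tissue, fewer cells of a type and less RNA per cell cannot be told apart.

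The response of the tissues differed for 1115 genes, 10.2% of those tested, with a change higher in liver than in lung for 962 genes (8.77%) and lower for 153 (1.4%). The split follows the scale of the values. The median change over all genes was 0.40 in liver and -0.05 in lung, which gave a median interaction of 0.43, and median-of-ratios scaling moved that median to -0.05. It left 617 calls, 277 higher and 340 lower in liver, and none of the calls on the deposited scale changed sign. Quantile normalisation left 488 calls, 269 higher and 219 lower, and 342 genes were called with the same sign on all 3 scales (209 higher and 133 lower). Without control lung 88 and A3B lungs 70 and 74, the lungs high in hepatocyte transcripts, 1 gene passed and 1205 had an unadjusted limma p under 0.05. That fit holds 2 control lungs and 1 A3B lung, and its median interaction was 0.43 as before. Leaving out a single lung low in those transcripts also cut the calls, to 280 without A3B lung 69 and 327 without control lung 91, against 271 without A3B lung 70, so the loss cannot be assigned to hepatocyte transcripts. With the mouse as a replicate block, which pairs the organs of animals 70 and 91, 2184 interactions were called (1894 higher and 290 lower in liver).

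Within tissues, 3302 genes rose (30.1%) and 941 fell (8.58%) in A3B liver, and 79 rose (0.72%) and 41 fell (0.374%) in A3B lung, when the spread was shared by all samples. These counts follow the choice of scale and of spread. In liver 1723 genes were higher (15.7%) and 2177 lower (19.9%) on median-of-ratios scaling, and 1801 higher and 1707 lower after quantile normalisation. With a spread of its own for each tissue, 1523 genes rose (13.9%) and 321 fell (2.93%) in liver, and 2050 rose (18.7%) and 2701 fell (24.6%) in lung. The interaction moved less, to 929 calls (819 higher and 110 lower in liver). The changes themselves are the same in both fits, and only their errors differ. Across genes, which are not independent replicates and share the animals 70 and 91, the liver and lung changes had a Pearson correlation of 0.385.

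**Figure D2:**
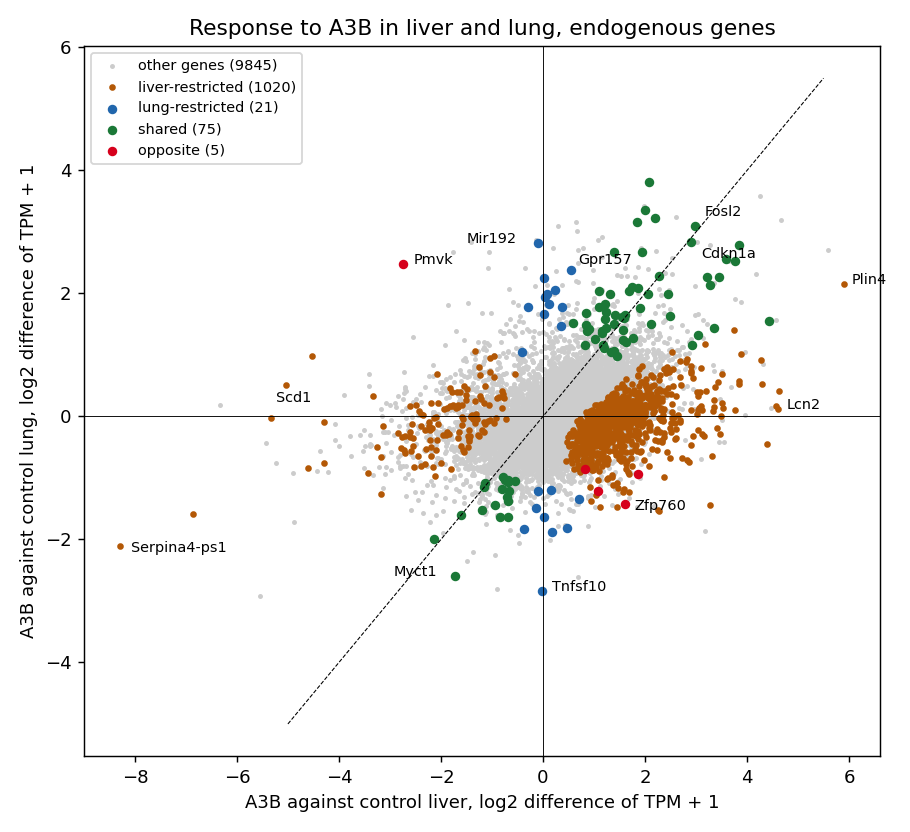
Change in A3B against control liver (x axis) and lung (y axis) on the log2(TPM + 1) scale for the genes tested other than the transgene, coloured by response class. The cloud is wider along the liver axis, its median lies at 0.40 in liver and -0.05 in lung, and Pmvk stands alone in the corner that is lower in liver and higher in lung among the 5 opposite genes.

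Genes were sorted by their calls. A response was shared when both tissues were called in the same direction, whether or not its size differed, opposite when both were called in different directions, and restricted when the interaction and 1 tissue alone were called. There were 76 shared genes (58 higher and 18 lower, the transgene among them; 7 of the 76 also had a called interaction), 5 opposite genes, 1020 liver-restricted genes (888 higher and 132 lower in liver) and 21 lung-restricted genes. A further 3142 genes were called in liver without an interaction, 18 in lung without an interaction, and 62 by the interaction alone. Of the 120 genes called in lung 81 were also called in liver, which is 67.5% of the lung calls and 1.91% of the liver calls, beside 38.7% of all genes called in liver and 1.09% in lung. The names of the classes hold for this fit only. With a spread of its own for each tissue there were 830 shared, 126 opposite, 495 liver-restricted and 175 lung-restricted genes. Of the 1020 liver-restricted genes 437 kept that class, 133 became shared (101 of them with the interaction still called), 125 lung-restricted and 122 opposite. Of the 830 shared genes of that fit 123 had a called interaction. With the mouse as a block there were 95 shared, 13 opposite, 1865 liver-restricted and 43 lung-restricted genes. Restricted therefore means called in 1 tissue at this error.

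Cdkn1a and Fosl2 had the largest shared rises by the smaller of their 2 changes, among mouse genes. Cdkn1a encodes p21, an inhibitor of cyclin-dependent kinases. It stood at 0.887, 0.806 and 0.154 TPM in control livers and at 11.6, 8.80 and 12.6 TPM in A3B livers. In lung it went from 3.19, 4.20 and 4.14 TPM to 39.9, 32.4 and 28.5 TPM. Neither pair of groups overlapped, and on the log2(TPM + 1) scale the change was almost the same, 2.91 ± 0.23 (adjusted p = 6.35e-05) in liver and 2.83 ± 0.23 (adjusted p = 0.00066) in lung, with an interaction of 0.08 ± 0.33. The control livers lay under 1 TPM, so this scale understates the liver change. Mean TPM went from 0.616 to 10.97 in liver and from 3.845 to 33.59 in lung, a larger fold in liver. Fosl2, a subunit of the AP-1 transcription factor, rose by 2.97 in liver (adjusted p = 0.000671) and 3.10 in lung (adjusted p = 0.00739). Its lung levels were 33.1, 34.8 and 17.8 TPM in controls and 342, 212 and 199 TPM with A3B. Ddit4, an inhibitor of mTORC1 signalling, went from 51.4, 38.6 and 48.0 TPM to 732, 222 and 1101 TPM in liver and from 666, 348 and 248 TPM to 2857, 2018 and 2070 TPM in lung. Its groups did not overlap in either tissue, although its lung call was near the threshold (adjusted p = 0.0459).

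Further shared genes rose in both tissues, some of them by unlike amounts. Inhbb, a subunit of activin B, rose by 3.85 in liver and 2.79 in lung. Rasd1, a small GTPase induced by dexamethasone, rose by 3.76 and 2.53. Fkbp5, a cochaperone of the glucocorticoid receptor, rose by 2.20 and 3.23 (adjusted p = 0.0157 and 0.0332). Angptl4, an inhibitor of lipoprotein lipase, rose by 1.90 and 1.76. Lyve1, a hyaluronan receptor of lymphatic and liver sinusoidal endothelium, rose by 3.27 and 2.13, from 507, 472 and 373 TPM to 2411, 1717 and 1817 TPM in lung. Tmcc3 rose by 2.28 and 2.29. With a spread of its own for each tissue Inhbb, Rasd1, Angptl4, Lyve1 and Tmcc3 remained shared, and the liver change of Fkbp5 did not pass (adjusted p = 0.136).

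The shared genes that fell held an endothelial gene, a growth factor receptor and genes of less known function. Myct1, an endothelial gene, went from 12.6, 18 and 11.7 TPM to 2.34, 6.46 and 2.69 TPM in liver and from 202, 242 and 257 TPM to 30.1, 34.1 and 52.3 TPM in lung. Both tissues separated fully, and the drop of 2.59 in lung (adjusted p = 0.00454) and 1.72 in liver gave an interaction of 0.87 ± 0.46 (adjusted p = 0.229). Fgfr4, the receptor through which intestinal FGF15 restrains bile acid synthesis in liver, fell by 1.20 in liver and by 1.52 in lung, where its call was near the threshold (adjusted p = 0.0492). Igip fell by 2.13 and 2.0, Nrep by 1.60 and 1.59, Pyurf by 1.14 and 1.08, and Eef1akmt1, a methyltransferase of elongation factor 1A, by 0.94 and 1.44. When each tissue had its own spread, the liver change of Myct1, Igip, Fgfr4 and Eef1akmt1 had adjusted p between 0.0532 and 0.104 and only the lung call held. Pyurf can share reads with Pigy, whose transcript it lies on, and its value is uncertain for that reason.

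**Figure D3:**
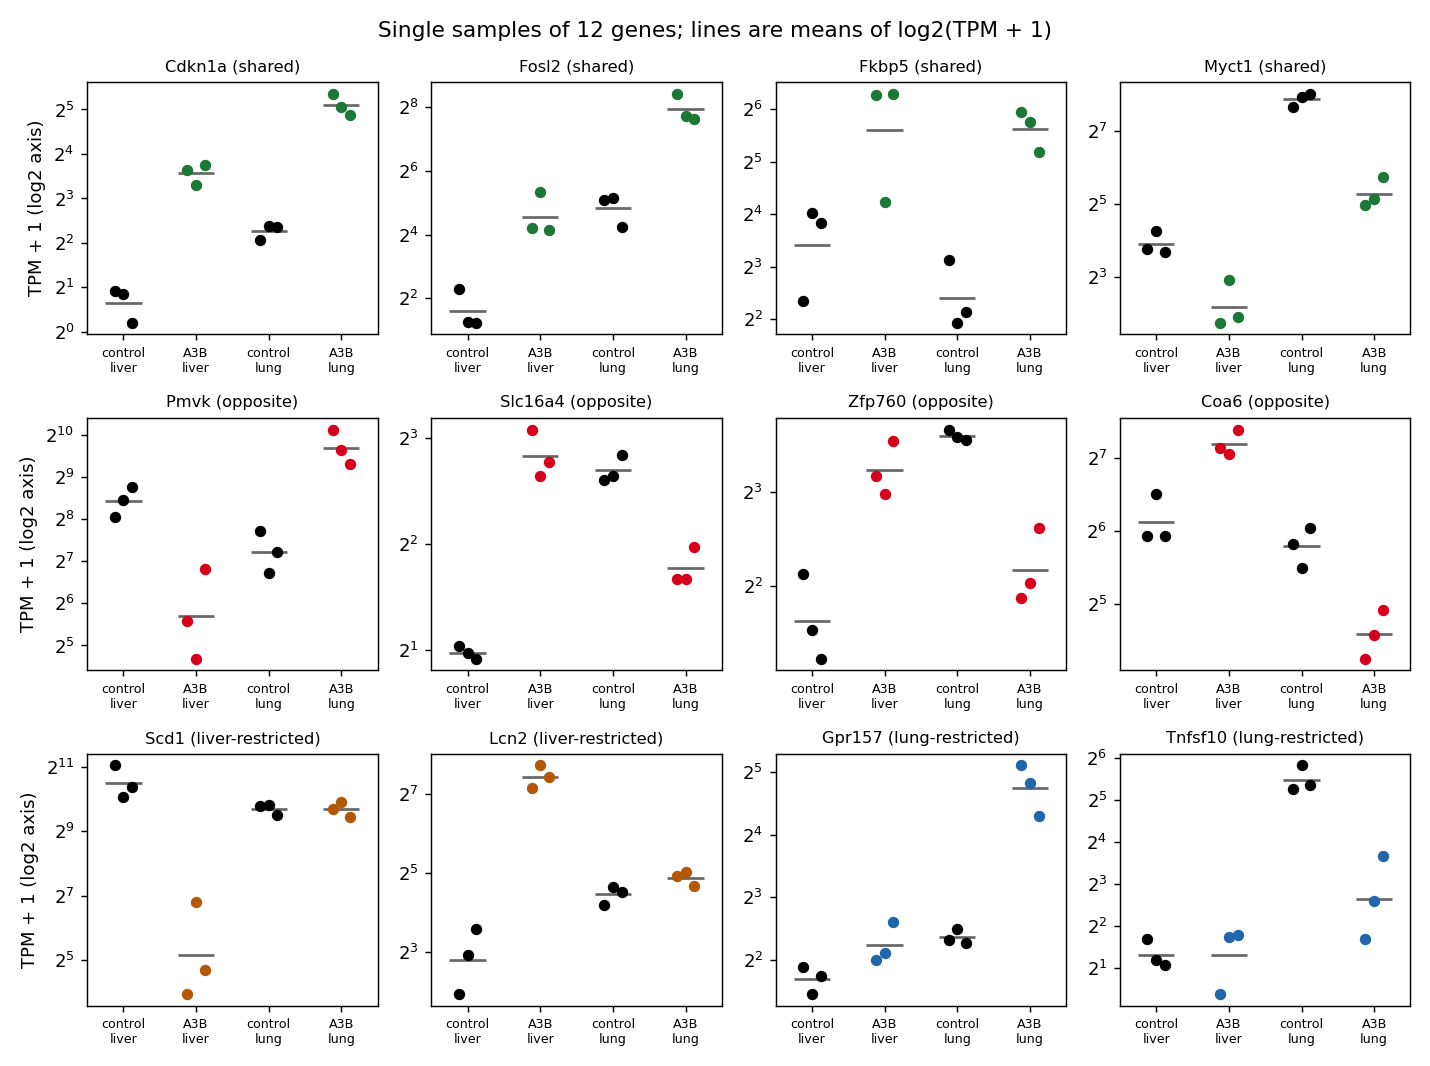
TPM of 12 genes in each sample on a log2(TPM + 1) axis, by group, with lines at the group means: 4 shared, 4 opposite, 2 liver-restricted and 2 lung-restricted genes. In Cdkn1a, Fosl2, Fkbp5 and Myct1 both tissues move together, in Pmvk, Slc16a4, Zfp760 and Coa6 they move in opposite directions, and Scd1 and Lcn2 move in liver while their lung points stay within a narrow band.

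Opposite responses were rare in this fit, with Pmvk, Slc16a4, Zfp760, Coa6 and Nup37 named here after their values were seen. Pmvk encodes phosphomevalonate kinase of the cholesterol pathway. It stood at 267, 352 and 435 TPM in control livers and 46.5, 24.8 and 111 TPM in A3B livers, whereas lungs went from 211, 105 and 148 TPM to 1126, 801 and 641 TPM. All A3B livers lay below all control livers and all A3B lungs above all control lungs. It fell by 2.74 in liver (adjusted p = 0.00177) and rose by 2.48 in lung (adjusted p = 0.0364), an interaction of -5.22 ± 0.67 (adjusted p = 0.00411, and 0.0104 with a spread of its own for each tissue).

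The other 4 opposite genes rose in liver and fell in lung. Zfp760, a zinc finger gene, went from 3.35, 1.90 and 1.34 TPM to 7.99, 6.88 and 10.6 TPM in liver and from 11.6, 10.9 and 10.7 TPM to 2.65, 3.08 and 5.13 TPM in lung, with an interaction of 3.02 ± 0.38. Slc16a4, of the monocarboxylate transporter family, rose by 1.86 in liver and fell by 0.93 in lung, with an interaction of 2.79 (adjusted p = 0.00089). Coa6, which helps assemble cytochrome c oxidase, rose by 1.07 and fell by 1.21, and its liver change did not pass with a spread of its own for each tissue (adjusted p = 0.156). Nup37, a nuclear pore component, moved from 5.52, 5.69 and 4.28 TPM to 10.3, 9.91 and 9.18 TPM in liver and from 7.50, 7.87 and 8.47 TPM to 3.77, 3.48 and 4.67 TPM in lung. With such a spread Pmvk, Slc16a4 and Zfp760 remained opposite, and Coa6 and Nup37 were called in lung and by the interaction but not in liver. On median-of-ratios scaling Zfp760 alone of these 5 remained opposite, and the lung changes of Pmvk and Slc16a4 both had an adjusted p of 0.0505, Coa6 one of 0.16 in liver and 0.0728 in lung, and Nup37 one of 0.123 in liver. The lung call of Pmvk was lost in 12 of 25 alternatives.

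The clearest group among liver-restricted responses was lipid synthesis. Of 24 tested genes of cholesterol synthesis and uptake, 20 fell and 0 rose in A3B liver, where 8.58% of all genes fell, while in lung 0 fell and 1 rose, Pmvk, beside 0.374% and 0.72% of all genes. All 24 had a negative interaction and 13 of them were called, against 1.4% of all genes. Leaving out 1 sample at a time gave 5 (without A3B lung 69 or 70) to 20 (without A3B liver 70) such calls. Their median change was -2.19 in liver and -0.34 in lung, with a median interaction of -1.76, against 0.43 over all genes tested. The 11 hepatocyte markers tested had a median interaction of -1.75, all negative and none called, from medians of -0.68 in liver and 1.16 in lung. Of 17 tested genes of fatty acid synthesis and desaturation 9 fell in liver, none rose and none was called in lung, with medians of -1.58 and 0.10, and 5 interactions were called, all negative (2 to 7 calls with 1 sample left out, fewest without control lung 87 or 91 or A3B lung 69 or 70). These counts grew on median-of-ratios scaling, to 14 and 8 interaction calls, while lower interactions over all 10967 genes grew from 153 to 340. By the fit with separate spreads, the liver counts were 18 and 6 and the interaction counts 14 and 5, and 11 cholesterol genes fell and 3 rose in lung, beside 24.6% and 18.7% of all genes.

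Scd1, the stearoyl-CoA desaturase that makes monounsaturated fatty acids, showed the largest drop among these genes. It stood at 2097, 1072 and 1312 TPM in control livers and at 14.5, 112 and 24.9 TPM in A3B livers. The lungs held 880, 902 and 724 TPM in controls and 832, 965 and 687 TPM with A3B. The liver groups did not overlap and the lung groups did, with a liver change of -5.33 ± 0.57 (adjusted p = 0.000221), a lung change of -0.02 ± 0.57 and an interaction of -5.31 ± 0.81 (adjusted p = 0.00593). Fasn, fatty acid synthase, fell in liver from 311, 196 and 467 TPM to 46.3, 31.4 and 107 TPM and stood between 212 and 319 TPM in all lungs. Srebf1, the transcription factor SREBP-1 itself, fell by 2.20 in liver with a lung change of 0.22 (interaction -2.42, adjusted p = 0.00815). Fads1, a desaturase of polyunsaturated fatty acids, and Elovl5, an elongase, fell by 2.39 and 1.58 in liver, with lung changes of -0.16 and 0.18.

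In the cholesterol pathway the drop covered early and late steps but not every enzyme. Lss had -0.21 and Hsd17b7 0.55 in liver. Hmgcs1, which makes HMG-CoA, fell by 2.76, Mvk by 2.16, Mvd by 2.78, Idi1 by 2.45, Fdps by 2.60, Sqle, the squalene epoxidase, by 2.31, Cyp51 by 2.55, Msmo1 by 2.0, Nsdhl by 2.21 and Sc5d by 2.54 in liver. Sc5d went from 411, 358 and 371 TPM to 55.6, 47.6 and 100.1 TPM there, with lungs between 14.4 and 29.5 TPM throughout. Insig1, which retains SREBP in the endoplasmic reticulum and is itself a target of it, fell by 2.36 with a lung change of 0.03. The lung changes of the enzymes named here as falling in liver lay between -0.83 (Mvk) and -0.23 (Sqle). Srebf2, the SREBP-2 gene, had -0.80 in liver and 0.33 in lung, and its interaction did not pass. The lists were drawn up with results on these samples known, so their direction is no independent evidence.

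**Figure D4:**
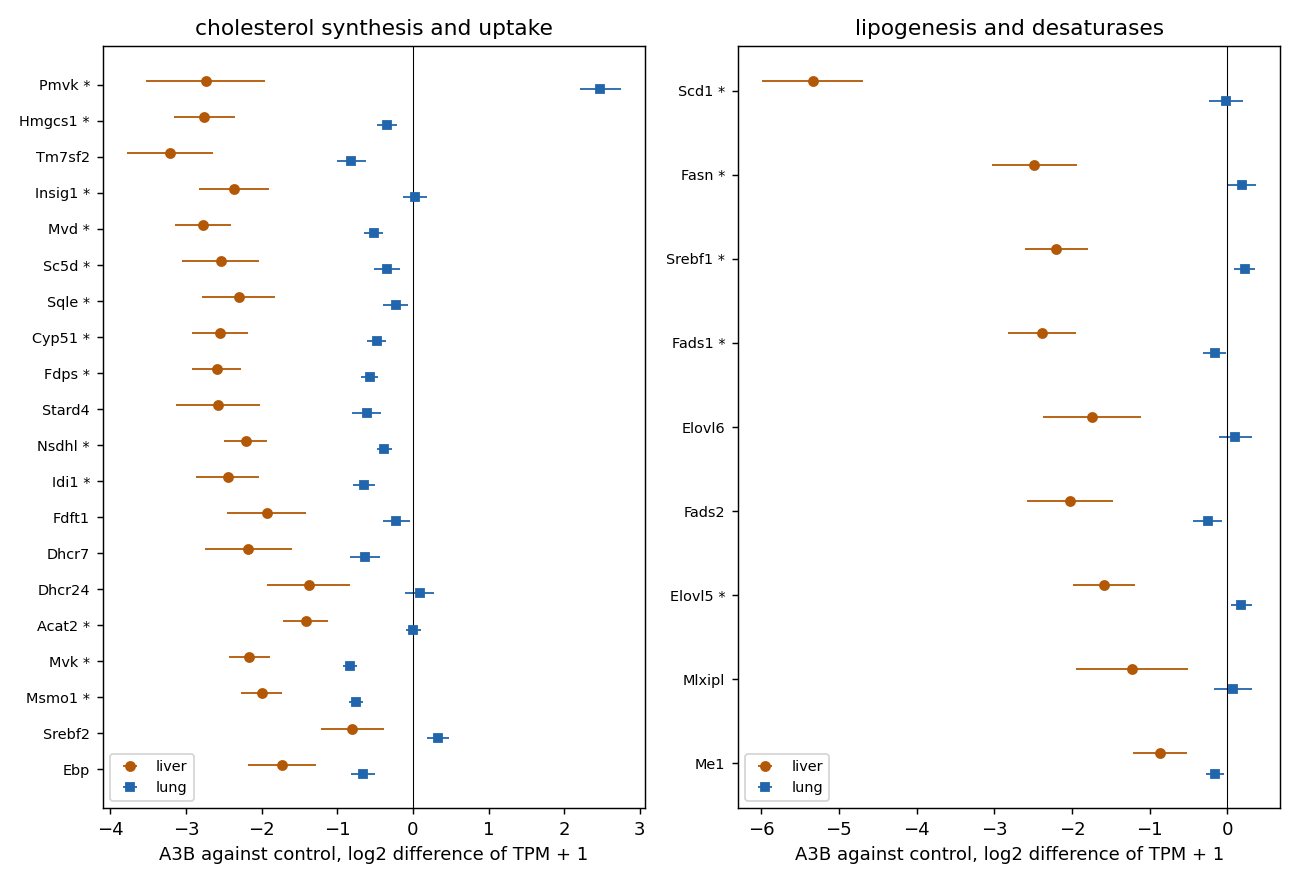
Liver and lung changes on the log2(TPM + 1) scale of the 20 cholesterol and 9 fatty acid genes called in liver, with bars for the SE from a spread of its own for each tissue and an asterisk for an interaction with adjusted p under 0.05. The genes were chosen by their liver call and all liver points lie below 0, most lung points lie near 0, and Pmvk is the one gene with a lung point above 2.

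The promoters of these genes were read for the CCAAT box, the element of NF-Y, a factor known to work with SREBP at sterol-responsive promoters. The letters searched were CCAAT on either strand (ATTGG when read on the gene's strand) in the 300 bases from 250 before to 50 after the start of each gene, from RefSeq on GRCm38.p6. Of the 41 lipid genes tested 30 had a promoter in that set, and 23 of them (76.7%) held the letters, 15 of 17 for cholesterol and 8 of 13 for fatty acid genes. The share was 37.9% over all 27025 promoters and 38.3% over 8628 promoters of genes tested. The box was present in 54.0% of 100 promoters of liver-restricted genes that fell in liver, in 40.6% of 690 of those that rose in 32.4% of 37 of shared genes that rose, in 50.0% of 16 of lung-restricted genes and in 50.0% of 14 of shared genes that fell. The 54.0% includes lipid genes counted above. A match is a stretch of letters and not a site of binding, and Acaca, Acat2, Dhcr7, Elovl6, Fads2, Me1 and Mlxipl had a promoter without it. The windows below show the box in capitals within 30 bases of each gene's own strand for the opposite gene Pmvk and for 6 genes that fell in liver, so that its differing surroundings and orientation can be read:
Pmvk, chr3:89454393-89454422, plus strand, 136 bases before the start: aactcaggttggCCAATtcacagcatctag
Srebf1, chr11:60222730-60222759, minus strand, 166 bases before the start: ctgcgactgtctCCAATgcaagacaacctt
Cyp51, chr5:4104709-4104738, minus strand, 29 bases before the start: cgctgtccgccaCCAATctggtcctgagat
Hmgcs1, chr13:119690294-119690323, plus strand, 45 bases before the start: tccccgcctctcATTGGctgaaagcggatc
Nsdhl, chrX:72918489-72918518, plus strand, 20 bases before the start: aagactagcctcATTGGgcaaaatcatgct
Sc5d, chr9:42264307-42264336, minus strand, 24 bases before the start: cgccggctgctgATTGGccggctgcctgca
Fasn, chr11:120824589-120824618, minus strand, 59 bases before the start: cctcggtgtccaATTGGtttcgatgtggag
Windows were printed only for genes that held the letters. Pmvk rose in lung, and Srebf1, Cyp51 and the others did not rise there in this fit. That all of them carried the letters was fixed by this choice.

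The other genes with the most negative interactions were of liver function. Enho, which encodes the peptide adropin, went from 24.9, 168 and 118 TPM to 2.31, 1.19 and 4.92 TPM in liver and from 17.9, 19.8 and 21.6 TPM to 53.8, 34.6 and 33.9 TPM in lung, an interaction of -5.50 ± 0.84 (adjusted p = 0.00593). Under separate spreads its lung rise was also called (adjusted p = 0.00809), which makes it opposite. Selenbp2 had an interaction of -5.56 ± 1.14, with 260, 67.1 and 83.3 TPM in control livers and at most 15.8 TPM in A3B livers, and it is nearly identical to Selenbp1, so that its reads are uncertain. The pseudogene Serpina4-ps1 (-6.17) and Mup9 (-5.27), a member of the highly similar major urinary protein genes, were liver genes whose lung values were highest in control lung 88, at 41.9 and 12.7 TPM, where hepatocyte transcripts were also high. Their interactions did not pass with a spread of its own for each tissue (adjusted p = 0.243 and 0.185). The part of these transcripts in the result was not tested.

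Among liver-restricted genes that rose, Lcn2, Hilpda, Plin4 and Tuba8 were among those with the largest changes. Lcn2, lipocalin 2, a secreted acute-phase protein that binds bacterial siderophores, stood at 2.77, 6.47 and 10.8 TPM in control livers and at 140, 210 and 170 TPM in A3B livers. In lung it was 17.3, 24.0 and 21.8 TPM in controls and 29.2, 31.3 and 24.4 TPM with A3B, which separates the groups by a small margin. The change was 4.63 ± 0.35 in liver and 0.42 ± 0.35 in lung, an interaction of 4.21 ± 0.50 (adjusted p = 0.0036). Hilpda, an inhibitor of triglyceride breakdown on lipid droplets, rose from 48.4, 39.8 and 34.5 TPM to 902, 3271 and 352 TPM in liver, while the lungs held 1146 to 1985 TPM with and without A3B. Plin4, a perilipin of lipid droplets, rose by 5.91 in liver, and its lung value of 2.16 did not pass (adjusted p = 0.149) but did with a spread of its own for each tissue (adjusted p = 0.00237), where the interaction did not (adjusted p = 0.0873). Tuba8, an alpha tubulin, rose from at most 2.01 TPM to 101, 47.4 and 15.7 TPM in liver, against 14.8 to 24.9 TPM in all lungs.

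Immune and immediate early genes gave further members. Usp18, an interferon-induced isopeptidase that restrains interferon signalling, rose in liver from 8.51, 5.0 and 4.41 TPM to 82.2, 205 and 133 TPM, and went in lung from 16.3, 20.0 and 17.9 TPM to 23.2, 25 and 32.3 TPM, an interaction of 3.75 ± 0.46 (adjusted p = 0.0036). Il1r1, the interleukin 1 receptor, rose by 3.04 in liver with a lung change of -0.22, and Ripk2, a kinase downstream of NOD receptors, by 2.08 with -0.19. Icam1, a leukocyte adhesion molecule, rose by 1.47 in liver and stood at -0.30 in lung, where its level was highest, 695 to 1106 TPM. Myc rose by 3.38 in liver, from 7.27, 8.06 and 7.65 TPM to 96.6, 127 and 57.5 TPM, and changed by 0.49 in lung. Btg2, an antiproliferative p53 target, rose by 3.84 against 0.58, and Jun by 2.31 against 0.10, with lung levels of 1477 to 2052 TPM throughout. Under separate spreads the lung rises of Usp18, Myc and Btg2 were called too (adjusted p = 0.0143, 0.016 and 0.0239), which made these genes shared in that fit. The histone gene Hist1h2be, whose coding sequence is close to that of other H2B genes and whose reads are therefore uncertain, had an interaction of 3.78. It stood at 43.1, 75.5 and 423 TPM in A3B livers against 20.8 to 24.9 TPM in control livers, and at 67.8 to 116 TPM in A3B lungs against 194 to 286 TPM in control lungs, and with separate spreads its lung change was called and its liver change was not (adjusted p = 0.0784).

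Lung-restricted genes were few. Gpr157, an orphan G protein-coupled receptor, stood at 3.98, 4.66 and 3.81 TPM in control lungs and at 33.4, 27.3 and 18.6 TPM in A3B lungs. The livers held 1.73 to 2.71 TPM in controls and 2.99 to 5.07 TPM with A3B. It rose by 2.38 ± 0.24 in lung (adjusted p = 0.0027) against 0.54 in liver, an interaction of -1.84 ± 0.34 (adjusted p = 0.0122). Lamc3, the laminin gamma 3 chain, rose in lung by 2.06 against 0.23 in liver, from 30.2, 31.4 and 23.1 TPM to 142, 116 and 104 TPM. Pla1a, a phospholipase that acts on phosphatidylserine, rose by 2.0 in lung, from at most 2.25 TPM to at least 7.22 TPM, and stood between 42.4 and 55.2 TPM in every liver. The Mir192 precursor gene, a liver and gut microRNA locus, was listed at 0 in the 3 control lungs and at 8.88, 7.67 and 3.17 TPM in A3B lungs. The livers held 7.25 to 14.6 TPM of it.

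Genes that fell in lung alone included a death ligand. Tnfsf10, which encodes TRAIL, went from 37.2, 55.7 and 40.1 TPM to 2.21, 5.01 and 11.7 TPM in lung, a change of -2.83 ± 0.49 (adjusted p = 0.0267), and was between 0.291 and 2.46 TPM in all livers. Clec11a, a secreted growth factor for bone progenitors, went from 18.5, 33.1 and 21.8 TPM to 5.35, 6.96 and 5.90 TPM in lung and ranged from 4.05 to 14.3 TPM in liver. C230035I16Rik and Gm14207 fell in lung by 1.87 and 1.83, with liver changes of 0.17 and -0.37. The control livers averaged 1.011 TPM for C230035I16Rik, 1.285 TPM for Gm14207 and 1.533 TPM for Tnfsf10. On the log2(TPM + 1) scale a fall as large as in lung could not show in liver for these genes. Once liver and lung were given their own spreads, the lung changes of all these genes were called, and the interaction was not for Gpr157 (adjusted p = 0.0533), Pla1a (0.0525), Tnfsf10 (0.163) and Gm14207 (0.142).

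Glucocorticoid-responsive genes had high medians in both organs. Of 20 tested, 12 rose and 1 fell in liver and 3 rose in lung, beside 30.1%, 8.58% and 0.72% of all genes, with medians of 1.98 and 1.5 and a median interaction of 0.10. With separate spreads for the tissues, 6 rose in liver and 18 in lung, beside 13.9% and 18.7% of all genes. Per1, a clock gene induced by glucocorticoids, had changes of 3.22 in liver and 1.5 in lung, Zbtb16 of 3.65 and 2.53, Mt2, a metallothionein, of 2.22 and 2.69, and Klf9 of 1.80 and 1.38. The 3 genes called in lung with a shared spread were Cdkn1a, Ddit4 and Fkbp5, so the lung changes of Per1, Zbtb16, Mt2 and Klf9 did not pass. Glul, glutamine synthetase of pericentral hepatocytes, had the one negative interaction of this list that was called, -2.38 (adjusted p = 0.0198), from 706, 737 and 777 TPM to 306, 160 and 519 TPM in liver and from 434, 276 and 252 TPM to 645, 764 and 556 TPM in lung. Genes of the PPAR alpha and fasting response also had like medians, 0.65 in liver and 0.73 in lung, and the 7 of 24 called higher in liver are close to the 30.1% over all genes, with 1 called in lung. On median-of-ratios scaling the medians were 0.12 in liver and 0.71 in lung. With separate spreads for the tissues, 3 of these 24 genes rose in liver and 10 in lung, beside 13.9% and 18.7% of all genes. Pdk4, which blocks entry of pyruvate into the citric acid cycle, had 4.67 in liver and 3.20 in lung, and Cyp4a14, a fatty acid hydroxylase, 4.26 and 3.59. The gene of this list called in lung with a shared spread was Angptl4, so the lung changes of Pdk4 and Cyp4a14 did not pass.

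Of 18 p53 targets tested 9 rose and 1 fell in liver and 3 rose in lung, beside 30.1%, 8.58% and 0.72% of all genes, and with separate spreads 5 rose and 1 fell in liver and 7 rose and 3 fell in lung, beside 13.9%, 2.93%, 18.7% and 24.6% of all genes. The list had medians of 0.87 and 0.27 and a median interaction of 0.33, under the 0.43 of all genes. Of 15 genes of double-strand break repair and checkpoints 3 rose and 1 fell in liver and none was called in lung, with 1 called interaction and a median interaction of 0.41. Mdm2, the ligase that degrades p53, rose by 2.09 in liver with 0.27 in lung (interaction 1.82, adjusted p = 0.0196). Cdkn1a, also in this list, rose by 2.91 and 2.83 on the log2(TPM + 1) scale, which understates its liver change. Bbc3, a proapoptotic p53 target, fell by 1.21 in liver with 0.28 in lung. The other set of livers described at the end gave Bbc3 a value of 0.465, in the other direction (edgeR adjusted p = 0.553). Of 16 genes of uracil and base excision repair 8 rose and 0 fell in liver, beside 30.1% and 8.58% of all genes, none was called in lung, and 5 interactions were called, all positive (Parp2, Ung, Mutyh, Ogg1 and Apex2), beside 8.77% of all genes. With 1 sample left out there were 0 (without control lung 91 or A3B lung 69) to 8 (without A3B liver 70) such calls. Their median change was 0.57 in liver and -0.23 in lung. Ung, the glycosylase that removes uracil, went from 1.69, 2.69 and 3.33 TPM to 12.7, 6.33 and 6.22 TPM in liver and from 1.17, 1.69 and 1.41 TPM to 0.658, 1.17 and 0.677 TPM in lung, with an interaction of 1.77 ± 0.38 (adjusted p = 0.0196). On median-of-ratios scaling 5 of these genes were higher and 2 lower in liver, beside 15.7% and 19.9% of all genes, and none of the 5 interactions passed. The median interaction of these genes came to 0.33 there, and Ung had an adjusted p of 0.116. In the fit with separate spreads, 5 interactions passed. There 3 of the 16 genes rose in liver, beside 13.9% of all genes, and 7 fell in lung, beside 24.6%.

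Among signalling lists, 14 of 22 AP-1 and immediate early genes rose in liver and 1 in lung, beside 30.1% and 0.72% of all genes, with medians of 1.92 and 0.68 and 3 positive interactions. When each tissue had its own spread, 7 rose in liver and 13 in lung, beside 13.9% and 18.7% of all genes. Of 25 NF-kB and inflammatory genes 11 rose in liver and none was called in lung (with separate spreads 4 rose in liver and 5 rose and 2 fell in lung, beside 13.9%, 18.7% and 24.6% of all genes), with medians of 1.08 and 0.11 and 4 positive interactions (Ripk2, Il1r1, Icam1 and Csf1), of which 2 were left on median-of-ratios scaling. Cxcl1, a neutrophil chemokine, had 3.68 in liver and 0.47 in lung, and its interaction did not pass. Of 35 interferon-stimulated genes 9 rose in liver, under the 30.1% of all genes, and none was called in lung, with medians of 1.01 and 0.54 and 1 interaction, that of Usp18. By the fit with separate spreads, 16 of them rose in lung and 1 fell, beside 18.7% and 24.6% of all genes, and 3 rose in liver, beside 13.9%.

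In the fit with a spread of its own for each tissue 24.6% of all genes fell in lung and 2.93% in liver. With a shared spread 8.58% fell in liver. The counts of the following lists are to be read beside those shares. Of 10 MHC class II genes 5 fell in liver and none was called in lung when the spread was shared, and 2 and 7 fell otherwise, with medians of -1.24 and -0.88 and no interaction called. Cd74, the invariant chain, went from 238, 243 and 223 TPM to 13.6, 14.3 and 175 TPM in liver and from 761, 1075 and 906 TPM to 426, 641 and 516 TPM in lung, so the groups did not overlap and A3B liver 70 lay nearest to the controls. Of 37 nuclear-encoded respiratory chain genes 7 fell in liver with a shared spread and 23 fell in lung with its own, with medians of -0.37 and -0.42. Of 29 mitochondrial ribosomal protein genes 21 fell in lung with its own spread (medians -0.08 in liver and -0.47 in lung), as did 16 of 31 proteasome genes (0.38 and -0.27) and 11 of 34 cytosolic ribosomal protein genes (0.28 and -0.38), the last close to the share of all genes. Across these lists 1 interaction was called, that of Psmc6 of the proteasome, and all 34 cytosolic ribosomal protein genes had a positive one. On median-of-ratios scaling the median interaction of that list was 0.14 in place of 0.71.

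**Figure D5:**
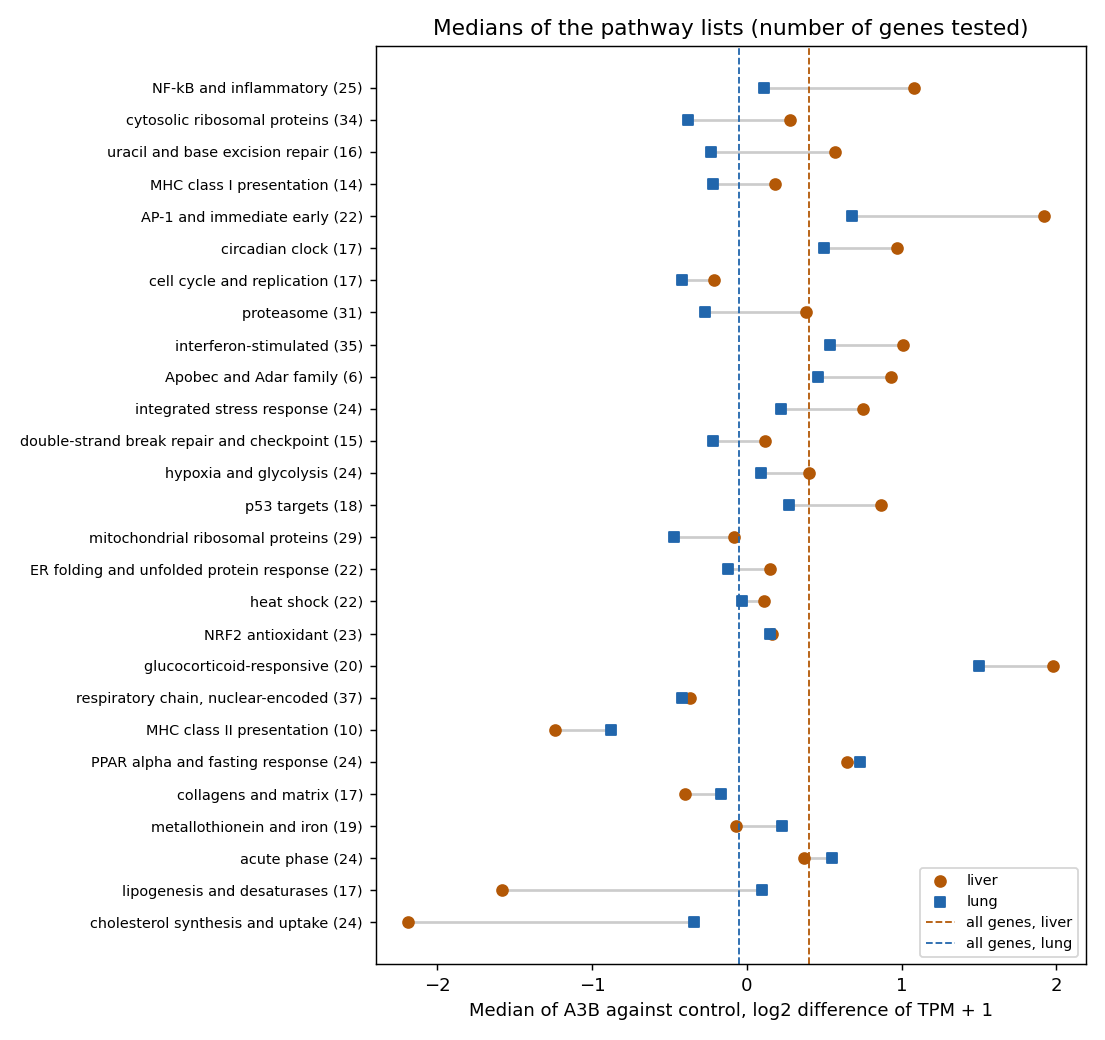
Median change on the log2(TPM + 1) scale in liver and lung of 27 gene lists, with dashed lines at the medians over all genes tested, 0.40 in liver and -0.05 in lung. Cholesterol and fatty acid genes lie far below the liver line and near the lung line, glucocorticoid-responsive genes lie high in both tissues, and NF-kB genes lie high in liver only.

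Markers of other cell types moved with some of these groups. The summed level of the neutrophil markers was 52.1, 145.3 and 14.49 TPM in A3B livers 23, 28 and 70, against 11.13 to 24.38 TPM in control livers, and 199.1 to 556.4 TPM in A3B lungs, against 153.9 to 228.7 TPM in control lungs. The summed B and plasma cell markers were 101.0 to 189.2 TPM in A3B lungs and 147.7 to 527.8 TPM in control lungs, beside the lower MHC class II genes there. The summed T and NK cell markers were 15.25, 5.724 and 127.2 TPM in A3B livers, against 29.84 to 78.84 TPM in controls. The summed adipocyte markers were 337.9, 742 and 141.8 TPM in A3B livers 23, 28 and 70 against 25.24 to 27.93 TPM in control livers, and 1091 TPM in A3B lung 70, the lung with the highest Plin4 at 296 TPM, against 126.4 to 340.7 TPM in the other lungs. Only 2 of the 7 adipocyte markers were tested, Cidec and Fabp4. The part of these cells in the inflammatory, lipid droplet and antigen presentation changes was not tested. Of the 11 hepatocyte markers tested none was called in either tissue, with medians of -0.68 in liver and 1.16 in lung. Their interactions were all negative, with a median of -1.75, and none was called.

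The liver side could be read in other animals. The series holds 8 further livers, 6 with A3B and 2 controls, none of which enters the fits above. They were quantified with kallisto, and 1.25% of their 17376 genes rose and 2.41% fell by edgeR's quasi-likelihood test. Of the 816 liver-restricted genes that rose in liver and were tested in that set 800 had the same direction there (98%), and of 130 that fell 128 did (98.5%), with 79 and 60 called. Shared genes had the same direction for 54 of 55 that rose and 13 of 17 that fell. Over all genes tested the direction was the same for 73.5% of those with a positive and 84.9% of those with a negative liver change. Of the lung-restricted genes tested there, which were not called in liver, 5 of 12 with a positive and 4 of 5 with a negative liver change kept that direction. Pmvk fell there by 2.91 (edgeR adjusted p = 0.00445), Scd1 changed by -7.92 (0.00713) and Srebf1 by -3.65 (0.00389), and Lcn2 rose by 7.21 (0.00527), Cdkn1a by 4.61 (0.0141) and Usp18 by 3.34 (0.0069). Of the genes called in liver and named here, Bbc3, at 0.465, Ly6g, at 3.58 (0.118), and Rrm2, which rose by 1.21 in liver above and had -0.08 in that set, went the other way. No other lungs were available for the same reading here.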

How the data were processed

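Per the study's methods, libraries were stranded, paired-end TruSeq RNA-seq aligned to mouse (GRCm38, mm10 in the submitters' processing notes). TPM values were deposited by the authors for 12 livers and lungs, from a read-count matrix of alignments whose column names say duplicates were removed. The methods name STAR for RNA-seq alignment and Picard for duplicates, without tying them to this table. For 8 other livers the authors deposited estimated counts per transcript made with kallisto, which were summed by gene and rounded. These held 65161064 to 118976013 counts per liver. Depth behind the TPM values is unknown, each column sums to 1e+06, and precision is limited by 3 samples per group. The labels do not say that samples came from separate litters or batches.

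Of 24849 rows 26 carried a date in place of a name and were left out, as was each repeated name (2 repeated names). The 10967 genes whose mean reached 1 TPM in both tissues were analysed as log2(TPM + 1). The 4 groups were fitted together with limma 3.58.1 (trend and robust) in R 4.3.3, with contrasts for liver, lung and their difference, and Benjamini-Hochberg adjustment over all genes tested at 0.05. Adjusted p-values are from limma unless edgeR is named. The kallisto livers were tested with edgeR 4.0.16 (quasi-likelihood), with DESeq2 1.42.0 as an alternative. A spread of its own for each tissue means limma array weights by tissue, and was added after the data were seen because the livers varied more. The fits were tested on simulated data.

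Named genes were the transgene, the largest interactions in each direction (6 each, reaching 10 TPM on average in a group), the largest shared, opposite and restricted changes at the same floor, up to 3 members per list and examples of members that passed. Slc16a4, Nup37 and the marker genes of the tissue check lie outside that rule or were chosen after their values were seen. The members and lists were chosen with earlier results of these data known.

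Implied gene lengths were checked against kallisto. In the later rows of the table they followed the length of the next gene in the table more closely (Spearman rho 0.58) than their own (0.29), while TPM followed the gene's own kallisto count (0.87). Levels were therefore compared between samples of the same gene only, and not between genes. The organs of a mouse deviated together, with correlations of 0.223 for mouse 70 and 0.29 for mouse 91, which are paired because each is 1 animal. The block had a consensus correlation of 0.591. Alternatives were another pseudocount (0.1), another minimum (5 TPM) or none, 2 other scalings, the mouse block, limma without trend, each tissue alone, and leaving out samples. Single values of some list members are not reported here.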

Additional observations from a re-analysis of the deposited data

Results flagged for a closer look

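The change with A3B differed between liver and lung, by the interaction test, for 1115 genes, and the values of the named ones follow on the log2(TPM + 1) scale as liver minus lung. The A3B transgene had 3.5.

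Among genes with a positive interaction, 4732416N19Rik had 4.85, Hilpda 4.49, Tuba8 4.40, Lcn2 4.21, 1700057G04Rik 3.96, Hist1h2be 3.78, Usp18 3.75, Plin4 3.74, Btg2 3.26, Il1r1 3.26, Sftpa1 3.21, Zfp760 3.02, Myc 2.89, Tnfsf10 2.82 and Phgdh 2.64. Smaller positive values were those of Clec11a (2.29), Coa6 (2.28), Acot2 (2.31), Ripk2 (2.26), Jun (2.21), Ccne2 (2.08), C230035I16Rik (2.04), Cebpd (1.91), Mdm2 (1.82), Ung (1.77), Icam1 (1.77), Tagln (1.65), Rrm2 (1.63), Gm14207 (1.46), Parp2 (1.36), Psmc6 (1.22), Nbn (1.20), Mutyh (1.12), Aldoa (1.11) and Syncrip (1.09).

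Among genes with a negative interaction, Serpina4-ps1 had -6.17, Selenbp2 -5.56, Enho -5.50, Scd1 -5.31, Mup9 -5.27, Pmvk -5.22, Mir192 -2.92, Fasn -2.67, Srebf1 -2.42, Glul -2.38, Nr1d1 -2.28, Sc5d -2.20, Tk1 -2.11, Ly6g -2.06, Pla1a -1.91, Pfkl -1.85, Gpr157 -1.84, Nsdhl -1.83, Lamc3 -1.82, Cldn5 -1.62 and Bbc3 -1.49. Since Mir192 was listed at 0 in the control lungs, its value stands for no fold.

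Sftpa1, a surfactant protein of alveolar type II cells, stood at 18.2, 3.17 and 43.9 TPM in A3B livers against at most 0.813 TPM in control livers, while Sftpc was at most 0.664 TPM in every liver. Ly6g, a neutrophil surface gene, fell by 1.26 in A3B liver although S100a8 and S100a9 had 2.82 and 2.28 there. Its value in the kallisto livers was 3.58, in the other direction (edgeR adjusted p = 0.118), and its interaction lost its call in 13 of 22 alternatives.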

How the results depend on the processing

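Every one of the 56 named interactions kept its sign under the alternatives run. Of these, 25 lost their call only without control lung 88 and A3B lungs 70 and 74, and 31 in other settings too. That setting was chosen after seeing the data, holds a single A3B lung that is assumed to vary like the other samples, and left 1 interaction call, 2189 liver calls, 2 lung calls, 2 shared, 0 opposite, 1 liver-restricted and 0 lung-restricted genes. It gave the transgene 4.17 (adjusted p = 0.169). Aldoa lost its call in 16 alternatives, Psmc6 in 15, Plin4, Serpina4-ps1, Sftpa1 and Gm14207 in 14, Mup9 in 11 and Fasn in 8. Of the changes within a tissue, the lung calls of Ddit4 and Fgfr4 were lost in 13 of 25 alternatives, those of Pmvk and Coa6 in 12, Pyurf in 9 and Tmcc3 and Zfp760 in 8. The cause of the differences between settings was not tested.

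Interaction calls were 1834 with no filter, 617 with median-of-ratios scaling and 488 with quantile normalisation. Liver calls were 1844 with a spread of its own for each tissue and 957 with each tissue alone, and lung calls 4751 and 4362, where the transgene interaction was 3.5 (adjusted p = 0.0543) with a spread of its own. Lung calls were 49 with a pseudocount of 0.1, 65 with a minimum of 5 TPM, 1431 with no filter, 346 with quantile normalisation, 1584 with only the A3B liver of 10 days and 188 without control liver 11 and control lung 87. Shared genes in the same order of settings numbered 35, 47, 256, 176, 590 and 149, and 830 and 410 with a spread of its own and each tissue alone. Opposite genes numbered 0 with a pseudocount of 0.1, 40 with no filter, 3 with median-of-ratios, 13 with quantile, 107 with the 10-day liver, 126 with a spread of its own and 53 alone. Liver-restricted genes numbered 564 with median-of-ratios, 413 with quantile, 495 with a spread of its own and 401 alone. Lung-restricted genes numbered 9 with a pseudocount of 0.1, 6 with a minimum of 5 TPM, 517 with no filter, 42 with quantile, 152 with the 10-day liver, 175 with a spread of its own and 283 alone. DESeq2 called 2401 genes in the kallisto livers.

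With the mouse as a replicate block, which pairs the organs of mice 70 and 91, there were 2184 interaction calls, 13 opposite, 1865 liver-restricted and 43 lung-restricted genes. Leaving out 1 sample at a time gave 271 to 2630 interaction calls (271 without A3B lung 70, 280 without A3B lung 69, 327, 372 and 461 without control lungs 91, 87 and 88, 463 without A3B lung 74, 348 and 492 without control livers 92 and 91, 2535 without control liver 11 and 2630 without A3B liver 70), 2579 to 4979 liver calls, 18 to 716 lung calls, 11 to 432 shared, 0 to 46 opposite, 261 to 2321 liver-restricted and 6 to 111 lung-restricted genes, a transgene interaction of 3.17 to 3.98, and 73 to 1596 calls in the kallisto livers. Depth is unknown for the TPM values, so what it limits cannot be stated.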

Other observations

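The counts of the lists not described above stand beside 30.1% of all genes that rose and 8.58% that fell in liver, and 0.72% that rose in lung. With a spread of its own for each tissue 13.9% rose and 2.93% fell in liver, and 18.7% rose and 24.6% fell in lung. On median-of-ratios scaling 15.7% rose in liver. Of 17 circadian clock genes 7 rose and 1 fell in liver, with medians of 0.97 in liver and 0.50 in lung. Of 24 integrated stress response genes 4 rose and 1 fell in liver and 1 rose in lung (3 in liver and 11 in lung with a spread of its own for each tissue), with medians of 0.75 and 0.22, and Phgdh, the first enzyme of serine synthesis, had an interaction of 2.64. Of 17 cell cycle and replication genes 5 rose and 3 fell in liver: Ccne2, cyclin E2, rose by 2.33 and Rrm2, a ribonucleotide reductase subunit, by 1.21, while Tk1, thymidine kinase, fell by 2.14, with lung values of 0.25, -0.42 and -0.03. Of 24 acute phase genes 4 rose in liver and none was called in lung, with medians of 0.37 and 0.55, a median interaction of -0.62 and 1 called interaction, that of Lcn2. Of 6 genes tested of the Apobec and Adar list, which also holds A1cf, Rbm47 and Syncrip, 4 rose in liver and none was called in lung with a shared spread. With a spread of its own for each tissue 1 rose in liver, and 3 rose and 1 fell in lung. On median-of-ratios scaling 1 rose in liver. Apobec1, which edits Apob RNA, had 0.78 in liver and -0.42 in lung, and Apobec3, the mouse relative of A3B, 0.09 and -0.70. Neither was called in liver (limma adjusted p = 0.153 and 0.862) or in lung with a shared spread, and neither interaction passed.

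Cldn5, a tight junction protein of endothelium, stood at 82.5, 118 and 104 TPM in control livers and 59.3, 42.7 and 36.8 TPM in A3B livers, and at 2907, 3066 and 2865 TPM in control lungs and 4616, 3843 and 4008 TPM in A3B lungs. The groups separated in opposite directions, with an interaction of -1.62 ± 0.29 (limma adjusted p = 0.0106), and with a spread of its own for each tissue both changes were called. Pecam1, another endothelial gene, had 0.52 in liver and -0.06 in lung, and neither passed.

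Ddx3y, a Y-linked gene, stood at 9.09 TPM in control liver 11 and at most 0.0239 TPM in the other 11 samples. Summed sex-linked genes stood at 33.62 TPM in control liver 11, and Xist was listed at 0 in every sample. Control liver 11 also lay apart from the other control livers in Enho, Selenbp2 and Mup9. Without it 2535 interactions were called, against 1115 with it. The part of sex in the comparison was not tested.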
